A study of Mus musculus with 9 samples.

Results

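RNA levels of 35 nuclear genes that encode subunits of respiratory complexes III, IV and V and cytochrome c were followed in macrophages from healing mouse skin wounds. The genes were taken by symbol from the known composition of the complexes, and no measured value entered that rule. The choice was made with earlier results of these data known. They comprise 9 genes of complex III, 1 gene for cytochrome c, 10 genes of complex IV and 15 genes of ATP synthase (complex V). All 35 were among the 18303 genes of the deposited count table, and all 35 passed the filter on low counts.

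The cells came from skin wounds of wild-type C57BL/6J mice, were sorted as CD45+CD11b+F4/80+ and received no treatment. CD45 marks blood-derived cells, and CD11b and F4/80 are carried by macrophages, though not by them alone. The cells were collected 4 days (4 libraries) or 14 days (5 libraries) after injury, and both groups carry the same labels apart from time. The labels give no age and do not say whether libraries came from separate or pooled animals, and p-values therefore rest on the scatter among libraries, which may be technical. Values are CPM, a gene's count relative to the library's total after TMM scaling, differences are log2 fold changes of day 14 against day 4 with their standard error (SE), and a gene is called at an edgeR adjusted p under 0.05.

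Libraries held 17982637 to 57809940 counts. The counts of day 14 replicate 5 stop within Aplp2 on chromosome 9, and the genes after it on chromosome 9 and those on X and Y are at or near 0 there. This touches 5 members (Uqcrc1, Cox5a, Cox7a2, Cox7b and Atp5l), whose values come from the 8 other libraries, while the other 30 have all 9. All 9 macrophage markers found were detected, with a summed level of 18209 to 20294 CPM on day 4 and 20054 to 23166 CPM on day 14, and 3 were called higher and 4 lower. Markers of other cells were present as well. Of 10 fibroblast markers 7 were lower at day 14 and 0 higher (summed level 10629 to 21319 CPM on day 4 and 5893 to 9596 CPM on day 14), and of 10 dendritic cell markers 7 were higher and 0 lower (249 to 312 CPM and 485 to 563 CPM). Higher calls also made up 4 of 4 eosinophil markers tested (15.5 to 23.6 CPM on day 4, 24.8 to 71.96 CPM on day 14), 2 of 2 T cell markers (35.4 to 41.3, then 78.5 to 107 CPM), 4 of 6 keratinocyte markers (4.74 to 8.6, then 7.66 to 14.8 CPM) and 2 of 6 endothelial markers (47.6 to 51.7, then 33.4 to 79.1 CPM). None of these was called lower, and 0 of 7 neutrophil markers were called (610 to 1678, then 243 to 1701 CPM). No marker of these lists was at 0 in all libraries. Markers beyond the point where day 14 replicate 5 stops are left out of the sums of that library only. Its sums can therefore hold fewer genes than those of the other libraries. The part of other cells in the differences given here was not tested, and in bulk RNA fewer cells of a type and less RNA per cell cannot be told apart.

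Complex III passes electrons from ubiquinol to the soluble carrier cytochrome c, and complex IV passes them from cytochrome c to oxygen. Both pump protons out of the mitochondrial matrix, and ATP synthase lets the protons return through a ring of c subunits whose rotation drives ATP formation in the F1 head. Early inflammatory macrophages are known for high glycolysis, whereas macrophages activated by IL-4 are known to depend more on oxidative phosphorylation. The catalytic core of complex IV and the cytochrome b of complex III are encoded by mitochondrial DNA. The 13 mitochondrially encoded subunits were not analysed here, since 0 of 13 symbols were found in the count table.

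Nuclear genes of the respiratory chain are textbook targets of nuclear respiratory factor 1 (NRF1), of the ETS protein GABP and of YY1, and the promoters of the members were searched for the letters these factors are known to bind. RefSeq promoters on GRCm38.p6 (250 bases before to 50 bases after the start) were found for 28 members, in 31 windows. The NRF1 letters CGCANGCG, on either strand, occurred in 15 of 31 windows (48.4%), belonging to 14 genes. They occurred in 8.21% of all 32851 windows of the table and in 15.8% of the 13399 windows of genes tested. The ETS letters CCGGAAG occurred in 10 windows (32.3%, against 8.86% of all windows and 16.6% of those of tested genes) and the YY1 letters AAGATGGCG in 2 windows (6.45%, against 1.4% and 2.81%). None of the 3 strings contains another. The median GC content was 56.7% in the members' windows, 52.7% in all windows and 60.3% in those of tested genes. A match describes the sequence and is not a measured binding site. Below, 1 or more stretches stand for each complex, with the NRF1 match in capitals, 5′ to 3′ on the gene's strand. Those of Uqcrc1 and Atp5o are shown because both transcripts were lower at day 14, and their match begins 6 and 10 bases past the start. In the others the match begins before the start, by 61 bases in Cycs, 116 in Cox6a1, 41 in Atp5g2 and 49 in Atp5k.
Cycs (chr6:50566607-50566646, minus strand): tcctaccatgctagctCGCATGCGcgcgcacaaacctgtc
Uqcrc1 (chr9:108936643-108936672, plus strand): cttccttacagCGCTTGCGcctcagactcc
Cox6a1 (chr5:115349051-115349090, minus strand): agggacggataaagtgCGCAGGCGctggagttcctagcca
Atp5o (chr16:91931602-91931631, minus strand): gctggcgcgcgCGCGTGCGctctggcgcca
Atp5g2 (chr15:102671065-102671104, minus strand): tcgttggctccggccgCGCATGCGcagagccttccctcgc
Atp5k (chr5:108434425-108434464, minus strand): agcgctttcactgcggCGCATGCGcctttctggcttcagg

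Most members differed little between the days. Of the 35, 4 were called lower at day 14 (Cyc1, Uqcrc1, Cox4i1 and Atp5o), 0 were called higher and 31 were not called. Over all 13344 genes tested, 31.0% were called, 14.9% lower and 16.1% higher, so the members' 4 of 35 lie below the share of all genes for both directions together and near it for lower calls. At an unadjusted p under 0.05, 1 member was higher (Cox7c) and 7 were lower, against 21.8% and 20.6% of all genes tested. DESeq2 called 0 members higher and 7 lower, against 18.0% and 17.5% of all genes. Limma-voom called 0 higher and 5 lower, against 16.8% and 15.8% of all genes. The log2 fold change lay below 0 for 25 members and above 0 for 10, from -0.63 (Uqcr11) to 0.22 (Cycs), with a median of -0.08 against 0.01 over all genes tested. The members' median SE was 0.10, so single-gene changes much smaller than those called were not detectable at this number of libraries. In 5 members the libraries of the days did not overlap (Cyc1, Uqcrh, Cox4i1, Atp5o and Atp5k), against 25.8% of all genes tested. The number of members called lower rested on the libraries used. It fell to 1 (Cyc1) without day 14 replicate 1 or without day 14 replicate 2, to 2 without day 4 replicate 4 and to 0 in the 6 libraries of lower depth, and rose to 6 without day 14 replicate 3. The 6 libraries are day 4 replicates 1 and 2 and day 14 replicates 2, 3, 4 and 5. Lower depth and fewer libraries cannot be told apart there. Without day 14 replicate 5, Cox7c was called higher.

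**Figure D1:**
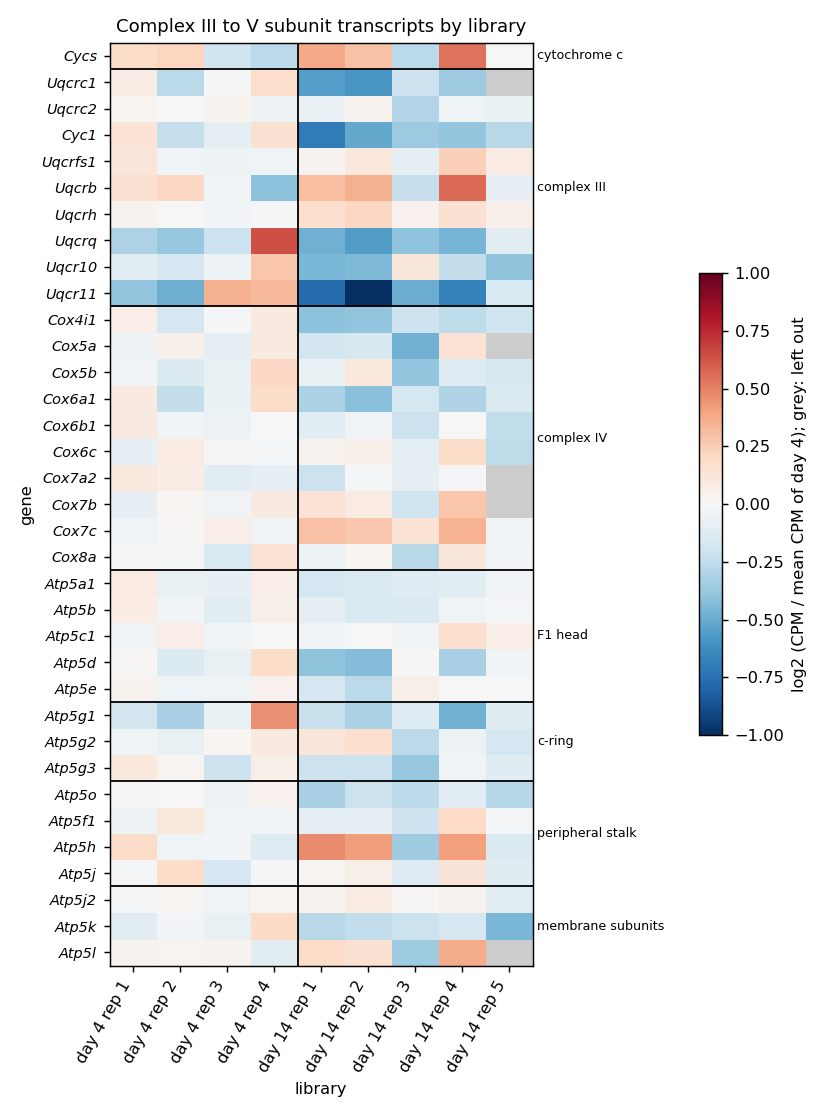
Levels of the 35 transcripts (rows, by complex) in the 9 libraries (columns), as log2 of CPM over the mean of day 4, with red above and blue below that mean and grey for values left out. Cyc1 and Cox4i1 are blue in all 5 day 14 libraries, Uqcrc1 in the 4 it has, whereas Cycs and Uqcrb vary within both days.

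Summed over the 30 members with all 9 libraries, the level was 2347 to 2567 CPM in the day 4 libraries (mean 2473 ± 109, SD, n = 4) and 2220 to 2448 CPM in the day 14 libraries (mean 2320 ± 87.9, SD, n = 5), and the ranges overlap. Levels between genes are given per kilobase of transcript. At day 4 they ran from 292 CPM per kb for Atp5b, the catalytic beta subunit, to 7.61 CPM per kb for Cox5b, a 38.4-fold range with a median of 46.7 CPM per kb. Next to Atp5b came Cox4i1 (218 CPM per kb), Atp5e (194), Atp5g3 (181) and Atp5a1 (179), and at the low end stood Uqcrq (7.91), Atp5g1 (12.2) and Uqcr11 (14.2). At day 14 Atp5b was again highest (275 CPM per kb), the lowest was Uqcrq (6.03 CPM per kb), and 29 of 35 ranks moved by at most 2 places. The order depends on the 1 transcript taken per gene, which for Uqcrq is 1521 bases long. In plain CPM on day 4, Uqcrq (12.0) stood above Cox5b (6.58), Uqcr11 (6.33) and Atp5g1 (7.29). Many small subunits of the chain have processed pseudogenes, and how the authors' counting treated reads shared with them is not given in the sources used here, so the order of levels is less certain than the comparison of a gene with itself.

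**Figure D2:**
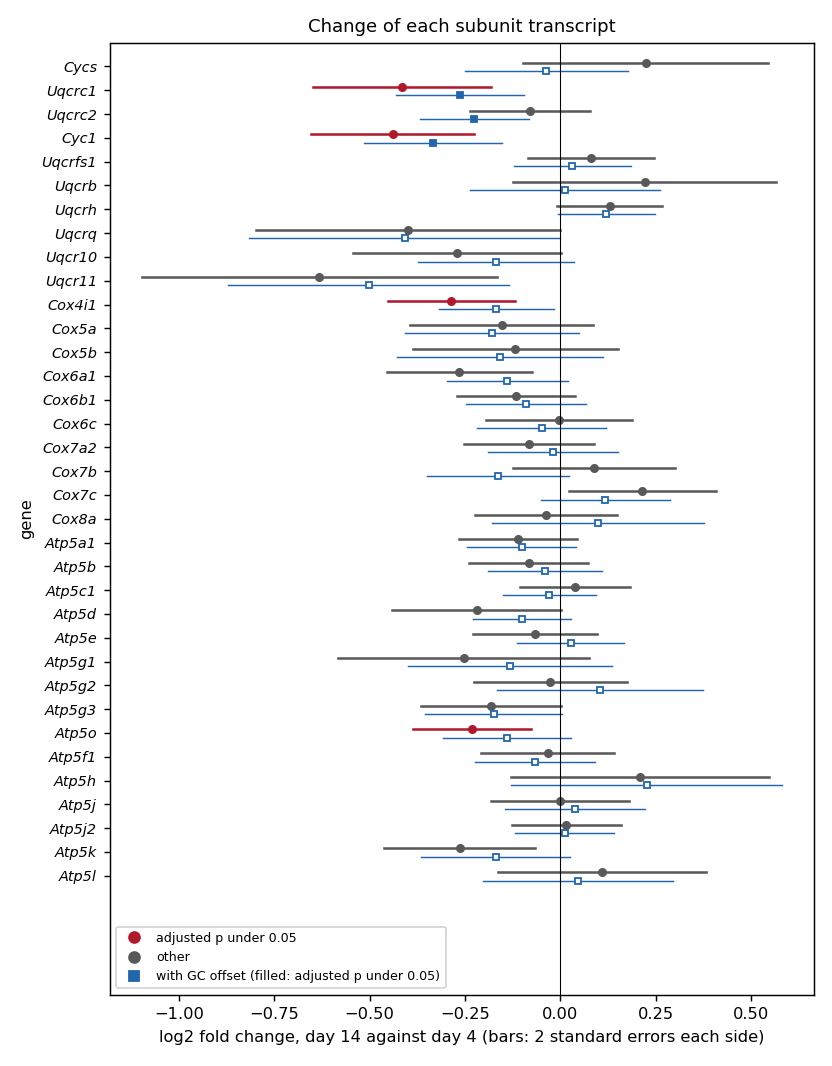
Log2 fold change of each member, day 14 against day 4, with 2 standard errors each side (circles, red where the adjusted p is under 0.05) and the same with an offset for transcript GC content (blue squares, filled where the adjusted p is under 0.05). The 4 red genes lie between -0.44 and -0.23, and with the offset Cyc1, Uqcrc1 and Uqcrc2 are the filled ones.

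In complex III, 2 of 9 genes were called lower and 0 higher, against 14.9% and 16.1% of all genes tested. The median log2 fold change was -0.27. Cyc1 encodes cytochrome c1, which hands electrons to cytochrome c (chromosome 15, 76343513 to 76346260, GRCm38.p6). It stood at 53.7, 41.6, 45.6 and 54.4 CPM in the day 4 libraries and at 30.1, 34.3, 37.9, 37.2 and 40.2 CPM in the day 14 libraries. Every day 14 library was below every day 4 library. The level fell by 26.4% (log2 fold change -0.44 ± 0.11 SE, edgeR adjusted p = 0.00834), and the call was kept without any single library but not in the 6 libraries of lower depth (adjusted p = 0.0903).

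Uqcrc1 encodes core protein 1, a large matrix-facing subunit (chromosome 9, 108936648 to 108949641, promoter stretch above). It stood at 93.0, 73.5, 87.3 and 100.1 CPM on day 4 and at 60.5, 59.3, 76.7 and 68.9 CPM in the 4 day 14 libraries used. The days overlap, since day 14 replicate 3 lay above day 4 replicate 2. The log2 fold change was -0.42 ± 0.12 SE (edgeR adjusted p = 0.020, n = 4 and 4), and the adjusted p was 0.0657 without day 14 replicate 1 and 0.0657 without day 14 replicate 2. Its partner Uqcrc2, core protein 2, had the highest CPM of the complex and moved less: 99.0, 97.0, 99.6 and 94.1 CPM on day 4 and 93.1, 99.99, 79.5, 94.4 and 93.0 CPM on day 14. Its log2 fold change was -0.08 ± 0.08 SE (edgeR adjusted p = 0.472), and only day 14 replicate 3 stood well below the other libraries.

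Uqcrh, the hinge protein that lies next to cytochrome c1, went the other way without passing the test. Its level was 77.8, 76.3, 74.7 and 75.4 CPM on day 4 and 85.3, 87.9, 78.2, 84.7 and 78.6 CPM on day 14. The days do not overlap, and the log2 fold change was 0.13 ± 0.07 SE (edgeR adjusted p = 0.168). Uqcr11, a small subunit at 4.50 to 8.08 CPM on day 4 and 2.78 to 5.68 CPM on day 14, had the lowest log2 fold change of the 35, -0.63 ± 0.23 SE, at an edgeR adjusted p of 0.0568. It passed in 5 of 22 alternatives, DESeq2 and limma-voom among them. On day 4 it was at 4.81 and 4.50 CPM in replicates 1 and 2 and at 8.08 and 7.92 CPM in replicates 3 and 4. In the 6 libraries of lower depth its log2 fold change was -0.15 (edgeR adjusted p = 0.767). The remaining 4 complex III genes ran from -0.40 for Uqcrq to 0.22 for Uqcrb. Both ends leaned on day 4 replicate 4, without which they were -0.11 and 0.08, and Uqcrb was 0.12 without day 14 replicate 4. Uqcrfs1, the Rieske iron-sulfur protein, was at 55.7 ± 3.29 CPM on day 4 and 58.8 ± 5.02 CPM on day 14 (SD, n = 4 and 5, log2 fold change 0.08, edgeR adjusted p = 0.479).

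Cytochrome c itself, encoded by Cycs, varied within each day. Its level was 72.2, 73.8, 55.3 and 53.1 CPM on day 4 and 82.7, 77.8, 52.8, 92.6 and 63.8 CPM on day 14. Day 14 replicate 3 was the lowest library of all and day 14 replicate 4 the highest, and the log2 fold change was 0.22 ± 0.16 SE (edgeR adjusted p = 0.307). It was 0.14 and 0.12 without day 4 replicate 3 or 4 and 0.13 without day 14 replicate 4. Its direction turned to -0.04 in the 6 libraries of lower depth and with the GC offset described further on.

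**Figure D3:**
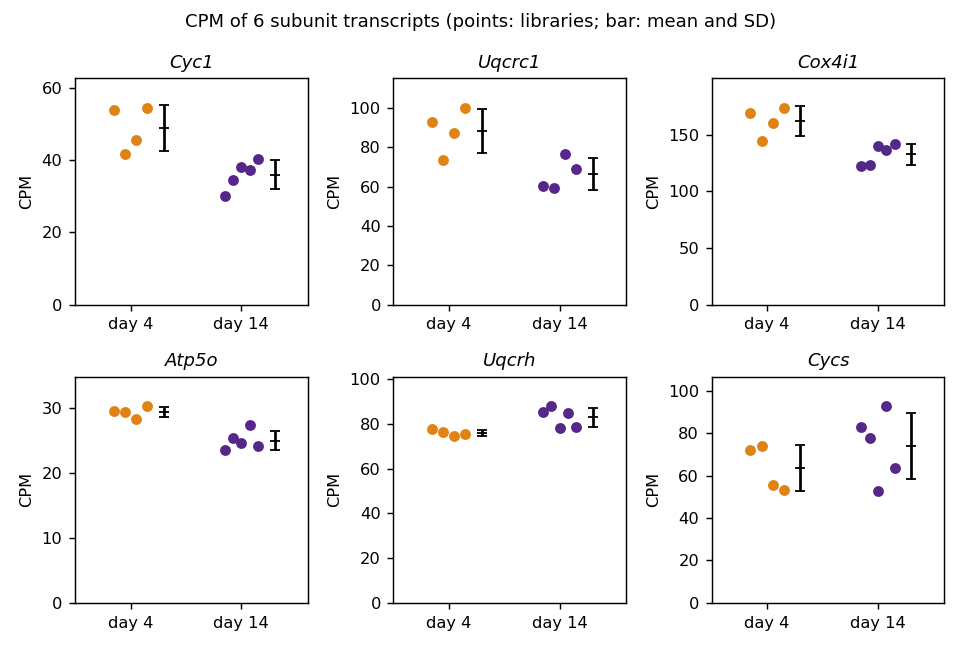
CPM of 6 transcripts in each library, with day 4 (n = 4) in orange and day 14 (n = 5, or 4 for Uqcrc1) in purple, and the mean and SD in black, on axes that start at 0. Cyc1, Cox4i1 and Atp5o are lower in every day 14 library than in every day 4 library, Uqcrc1 overlaps by 1 library, Uqcrh is slightly higher without overlap, and Cycs overlaps widely.

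In complex IV, 1 of 10 genes was called lower and 0 higher, against 14.9% and 16.1% of all genes tested. The median log2 fold change was -0.10. Cox4i1 encodes subunit 4 in its ubiquitous isoform, a nuclear subunit that takes part in allosteric control of the enzyme (chromosome 8, 120668225 to 120674209). It stood at 169.7, 144.5, 160.5 and 173.8 CPM on day 4 and at 122.3, 123.2, 140.1, 136.3 and 141.6 CPM on day 14. The highest day 14 library lay just under the lowest day 4 library. Cox4i1 fell by 18.1% (log2 fold change -0.29 ± 0.08 SE, edgeR adjusted p = 0.0217). The adjusted p was 0.0512 without day 4 replicate 1, 0.05002 without day 4 replicate 4, 0.0604 without day 14 replicate 1 and 0.0604 without day 14 replicate 2, each no longer under the threshold.

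The other 9 complex IV genes were not called. Cox6a1, the ubiquitous isoform of subunit 6A, came nearest, with a log2 fold change of -0.26 ± 0.10 SE (edgeR adjusted p = 0.0521). Its level was 66.5 ± 8.43 CPM on day 4 and 55.2 ± 4.23 CPM on day 14 (SD, n = 4 and 5). It was called in 5 of 23 alternatives, DESeq2 among them (adjusted p = 0.0363). With the GC offset described further on it was -0.14 (edgeR adjusted p = 0.202). Cox7c, a small membrane subunit, was at 14.8 to 15.9 CPM on day 4 and 14.97 to 19.3 CPM on day 14 (log2 fold change 0.22 ± 0.10 SE, edgeR adjusted p = 0.107), with day 14 replicate 5 inside the day 4 range. Its counts were not whole numbers in any of the 9 libraries. Cox6b1, which joins the monomers of the enzyme on the outer side, was at 105 ± 4.59 and 96.6 ± 7.08 CPM. Cox5a, Cox7a2 and Cox7b, from 8 libraries, had log2 fold changes of -0.15 (-0.09 and -0.27 without day 14 replicate 3 or 4), -0.08 and 0.09, and Cox5b, Cox6c and Cox8a of -0.12, -0.004 and -0.04.

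In ATP synthase, 1 of 15 genes was called lower and 0 higher, against 14.9% and 16.1% of all genes tested. The median log2 fold change was -0.07. The 5 genes of the F1 head and central stalk, where ATP is formed, were not called. Atp5b, its catalytic beta subunit and the most abundant member, was at 587.5, 548.4, 520.1 and 581.8 CPM on day 4 and 526.1, 502.4, 506.1, 545.5 and 554.1 CPM on day 14. The ranges overlap, and the log2 fold change was -0.08 ± 0.08 SE (edgeR adjusted p = 0.447). Taken with 2 SE each side, it lies between -0.24 and 0.07. Atp5a1, the alpha subunit, was at 443 ± 26.4 and 409 ± 16.2 CPM (SD, n = 4 and 5), and Atp5c1, Atp5d and Atp5e had log2 fold changes of 0.04, -0.22 and -0.07.

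Subunit c of the rotating ring is made from 3 genes whose mature proteins are the same and whose targeting peptides differ. Atp5g3 was the main one, at 139.1, 132.0, 112.3 and 134.8 CPM on day 4 and 111.7, 111.7, 99.8, 126.8 and 119.3 CPM on day 14. Atp5g2 stood at 32.5, 31.9, 34.1 and 35.8 CPM and at 36.6, 37.6, 28.0, 32.4 and 29.7 CPM. Atp5g1 stood at 6.43, 5.82, 6.91 and 9.99 CPM and at 6.23, 5.85, 6.65, 5.22 and 6.70 CPM. All 3 overlap between the days, and only day 4 replicate 4 stands clear of the rest, for Atp5g1. Their log2 fold changes were -0.18 ± 0.09 SE (edgeR adjusted p = 0.149), -0.03 ± 0.10 SE (0.870) and -0.25 ± 0.16 SE (0.259). Without day 4 replicate 4, that of Atp5g1 was -0.08. Over the last 75 codons the coding sequences share 84.9% of bases between Atp5g1 and Atp5g2, 80.0% between Atp5g1 and Atp5g3 and 78.7% between Atp5g2 and Atp5g3. Over the whole transcripts of these pairs the longest identical runs are 21, 11 and 9 bases, shorter than the 100-base reads. Only the transcripts of these 3 genes were compared, and reads shared with pseudogenes were not examined.

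In the peripheral stalk, which holds the F1 head still, Atp5o was the called gene (chromosome 16, 91925223 to 91931630, promoter stretch above). It encodes OSCP, the subunit at the top of the stalk. Its level was 29.6, 29.4, 28.4 and 30.3 CPM on day 4 and 23.5, 25.4, 24.6, 27.4 and 24.2 CPM on day 14. The day 4 libraries lie close together and above every day 14 library. The level fell by 14.99% (log2 fold change -0.23 ± 0.08 SE, edgeR adjusted p = 0.0385). This call was lost without any 1 of 6 libraries, with an adjusted p of 0.0641, 0.0541 and 0.0666 without day 4 replicate 1, 2 and 4 and of 0.0983, 0.0694 and 0.0700 without day 14 replicate 1, 2 and 5. Subunit b, encoded by Atp5f1 and the most abundant of the stalk, was at 66.3, 73.6, 66.8 and 67.4 CPM on day 4 and 64.0, 64.6, 59.4, 78.5 and 67.6 CPM on day 14. Its days overlap (log2 fold change -0.03 ± 0.09 SE, edgeR adjusted p = 0.802), as do those of Atp5h (0.21 ± 0.17 SE, and 0.13 and 0.32 without day 14 replicate 1 or 3) and Atp5j (-0.0003 ± 0.09 SE).

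Of the 3 membrane subunits that help ATP synthase form dimers, 0 were called. Atp5k, subunit e, stood at 15.9, 16.9, 16.4 and 19.8 CPM on day 4 and at 14.2, 14.6, 14.9, 15.4 and 12.6 CPM on day 14. Its days do not overlap, and the log2 fold change was -0.26 ± 0.10 SE at an edgeR adjusted p of 0.0598, with DESeq2 calling it (adjusted p = 0.0352). Atp5j2, subunit f, hardly varied: it was at 36.9, 37.9, 36.4 and 37.9 CPM on day 4 and 38.2, 39.5, 37.6, 38.2 and 34.6 CPM on day 14 (log2 fold change 0.02 ± 0.07 SE, edgeR adjusted p = 0.886). Atp5l, subunit g, had a log2 fold change of 0.11 ± 0.14 SE from 8 libraries.

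The log2 fold changes of the members went with the GC content of their transcripts. Over the 35 members, Pearson's r was -0.70 and Spearman's rho -0.71, and over 13229 genes with a transcript r was -0.19 and rho -0.31. These are descriptions across genes that share the same 9 libraries. The 13 members under 50% GC, Cycs, Uqcrb and Cox7c among them, had a median log2 fold change of 0.08 and 0 calls. The 12 members from 50 to under 55% had -0.10 and 1 call. The 10 members at 55% and over, Cyc1, Uqcrc1 and Cox4i1 among them, had -0.27, with 10 of 10 below 0 and 3 calls. Of all 13344 genes tested, 14.9% were called lower and 6496 had a log2 fold change below 0. Shares over all genes within the same GC classes are not given here, so these counts cannot be read as particular to the members. The libraries themselves differed in how expression leaned on GC content over 12182 genes. The slope was 0.07, -0.05, 0.15 and 0.26 log2 units per 10 points of GC in the day 4 libraries and -0.19, -0.18, 0.13, -0.21 and 0.04 in the day 14 libraries, so that day 14 replicates 1, 2 and 4 lay below every other library while replicates 3 and 5 lay within the day 4 range.

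**Figure D4:**
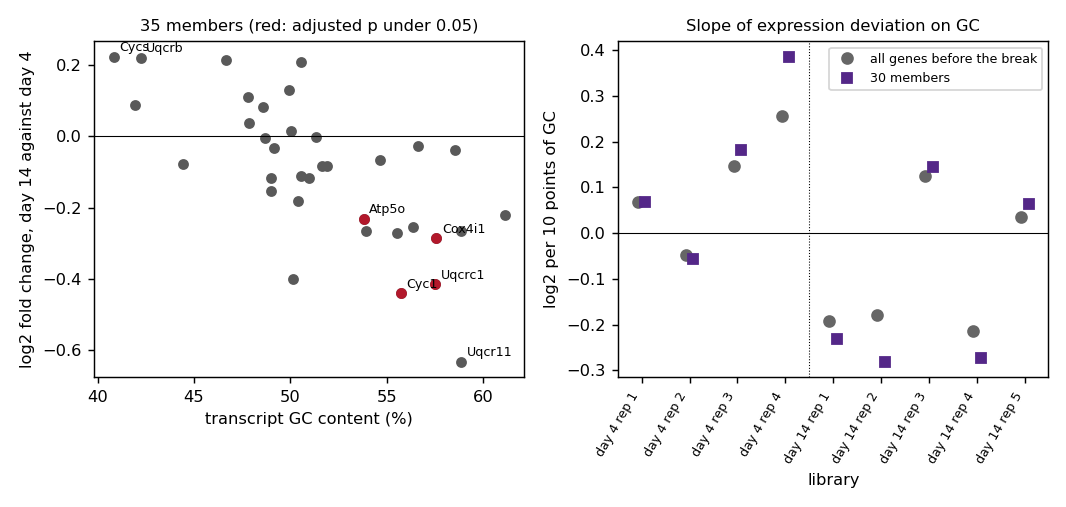
Left, log2 fold change of the 35 members against transcript GC content in percent, with called genes in red. Right, slope of each library's log2 deviation on transcript GC, per 10 points, over all genes before the break (circles) and 30 members (squares): both run from their highest in day 4 replicate 4 to values below 0 in day 14 replicates 1, 2 and 4.

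With an offset that takes out a smooth function of transcript GC in each library, an alternative added after seeing the data, r over the members was -0.24 and over all genes -0.01. Cyc1 (log2 fold change -0.33 ± 0.09 SE, edgeR adjusted p = 0.0141) and Uqcrc1 (-0.26 ± 0.08 SE, 0.0320) remained called, and Uqcrc2 became called (-0.23 ± 0.07 SE, 0.0294). Cox4i1 (-0.17 ± 0.08 SE, 0.108) and Atp5o (-0.14 ± 0.08 SE, 0.224) lost the call. The 3 members lower and 0 higher stand against 17.6% and 14.7% of all genes with the offset, and the members' median was -0.09. Among all genes called, the higher share was 51.9% without the offset, 45.6% with it and 58.0% under upper-quartile scaling. What sets the slopes of the libraries was not tested.

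Other genes of respiration, from lists of known components, are given by the same fit. Over all genes tested, 14.9% were called lower and 16.1% higher. In complex I, which takes electrons from NADH, 9 of 35 genes tested were called lower and 1 higher, with a median log2 fold change of -0.15. Ndufb9 was at 41.9 ± 1.86 CPM on day 4 and 32.9 ± 1.47 CPM on day 14 (log2 fold change -0.34, edgeR adjusted p = 0.00387), Ndufa3 at 31.6 ± 0.227 and 25.1 ± 1.63 CPM (-0.33, 0.00701) and Ndufv3 at 30.1 ± 1.92 and 23.6 ± 1.41 CPM (-0.35, 0.00725; SD, n = 4 and 5). All 3 were called without any single library, while Ndufb9 lost the call with the GC offset (adjusted p = 0.0715). Ndufa6 was the gene called higher, from 34.3 ± 1.57 to 40.9 ± 1.78 CPM (0.26, 0.0179), with an adjusted p of 0.0741 without day 4 replicate 3.

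Complex II, which takes electrons from succinate, had 3 of 4 genes called lower and 0 higher, against 14.9% and 16.1% of all genes tested. Sdhb, its iron-sulfur subunit, stood at 66.8, 61.1, 63.5 and 64.8 CPM on day 4 and at 47.0, 45.9, 53.7, 48.8 and 52.5 CPM on day 14. The groups are clear of each other, with a log2 fold change of -0.37 ± 0.07 SE (edgeR adjusted p = 0.00270). Sdhc, a membrane anchor, changed by -0.28 ± 0.08 SE (0.0150) and Sdha, the flavoprotein, by -0.23 ± 0.07 SE (0.0318), each without overlap. Sdhb and Sdhc kept the call without any single library. For Sdha the adjusted p was 0.0639 without day 4 replicate 1 and 0.0616, 0.0769 and 0.0603 without day 14 replicate 1, 2 and 5. With the GC offset all 3 were called, at adjusted p-values of 0.00487, 0.00601 and 0.00778. Sdhd, from 8 libraries, had a log2 fold change of -0.09 (0.389).

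**Figure D5:**
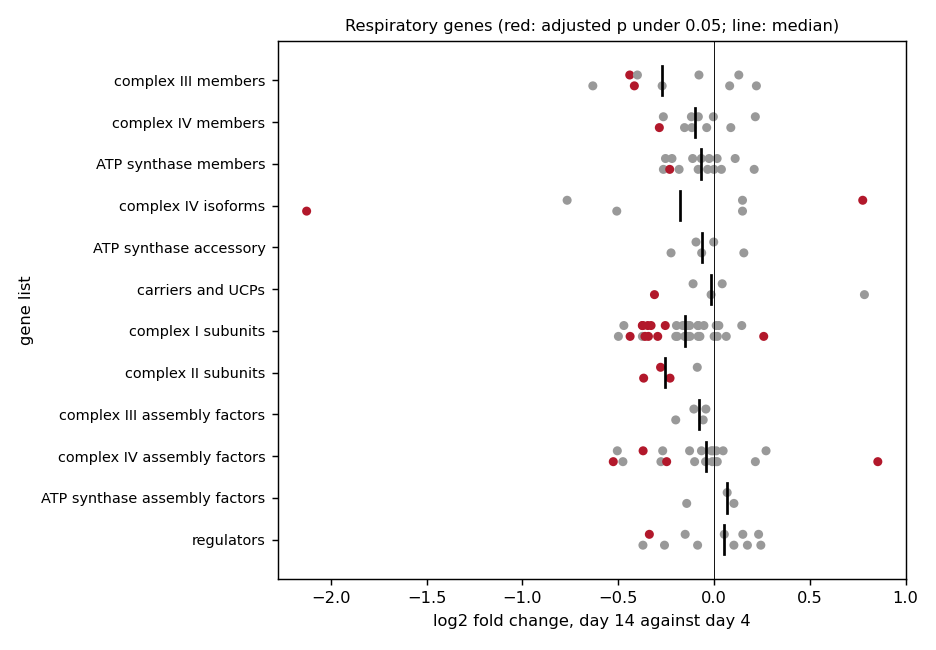
Log2 fold change, day 14 against day 4, of each tested gene (points, red where the adjusted p is under 0.05) in the 3 complexes and in the lists of other respiratory genes, with each list's median as a black line. The point at -2.13 is Ndufa4l2, the one at 0.86 is Cox20, and 3 of the 4 complex II genes are red.

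Of 6 tested tissue-restricted isoforms and later-named subunits of complex IV, 1 was called lower and 1 higher, both at low levels. The shares over all genes tested were 14.9% and 16.1%. Ndufa4l2, known as a hypoxia-induced relative of the complex IV subunit Ndufa4, stood at 3.72, 6.37, 4.16 and 3.36 CPM on day 4 and at 0.78, 0.99, 1.08, 0.75 and 1.47 CPM on day 14. Its highest day 14 library was under the lowest day 4 library, and the log2 fold change was -2.13 ± 0.26 SE (edgeR adjusted p = 9.5e-05). Ndufa4 itself was at 61.5 ± 3.09 and 68.0 ± 6.87 CPM (log2 fold change 0.15, adjusted p = 0.211). Cox6b2, known as the testis isoform of subunit 6B, was called higher between 1.13 ± 0.324 and 1.92 ± 0.318 CPM (0.78 ± 0.25 SE, 0.0340), with overlapping days, and when single libraries were left out it kept the call only without day 4 replicate 1 or day 14 replicate 3 (largest adjusted p = 0.0958, without day 4 replicate 3). The other 4 of 6 tested were not called, among them Cox7a2l, a factor of supercomplex assembly and the most abundant of the list (120 ± 3.37 and 133 ± 10.5 CPM, 0.15, 0.168).

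Among assembly factors of complex IV, 3 of 21 tested were called lower and 1 higher. That is near the share of all genes tested for lower calls (14.9%) and below it for higher calls (16.1%). Cox20, a chaperone of the mitochondrially encoded subunit 2, rose from 4.04, 4.46, 4.28 and 3.21 CPM on day 4 to 9.02, 7.4, 4.41, 9.19 and 5.84 CPM on day 14 (log2 fold change 0.86 ± 0.22 SE, edgeR adjusted p = 0.0105). Day 14 replicate 3 lay inside the day 4 range and the other 4 above it. Coa3, a translation-linked factor, changed by -0.37 ± 0.10 SE (0.0185), and Cox10 and Cox15, which make haem a for the enzyme, by -0.53 ± 0.16 SE (0.0234) and -0.25 ± 0.08 SE (0.0259). Coa3 lost the call without day 4 replicate 3 or 4 or day 14 replicate 1 (adjusted p 0.0503 to 0.0528). Cox10 lost it without day 4 replicate 3 or 4 or day 14 replicate 1, 2 or 4 (0.0554 to 0.0774), and Cox15 without day 4 replicate 3 or 4 or day 14 replicate 1 or 4 (0.0534 to 0.0626). The most abundant of the list, Coa5, was at 126 ± 2.22 and 117 ± 7.62 CPM (-0.10, 0.311), and was called with the GC offset (-0.23, 0.0177).

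Of the assembly factors of complex III (4 tested, Ttc19 the most abundant, log2 fold change -0.04) and of ATP synthase (3 tested, Tmem70 the most abundant, 0.07), 0 were called. The same held for 5 accessory and inhibitor genes of ATP synthase, of which Atpif1, the inhibitor of ATP hydrolysis, was at 51.4 ± 1.93 and 51.2 ± 3.76 CPM (SD, n = 4 and 5). Of 5 carriers and uncoupling proteins tested, 1 was called lower and 0 higher, against 14.9% and 16.1% of all genes tested. This was Slc25a4, an ADP/ATP carrier. It stood at 60.4, 80.3, 63.4 and 68.3 CPM on day 4 and at 54.4, 54.2, 50.2, 56.7 and 58.3 CPM on day 14. The days do not overlap (log2 fold change -0.31 ± 0.09 SE, edgeR adjusted p = 0.0227), and the adjusted p was 0.0538 without day 4 replicate 2, 0.0512 without day 14 replicate 1 and 0.0516 without day 14 replicate 2. Ucp2, an uncoupling-protein family member abundant in macrophages, was at 751 ± 109 and 694 ± 48.3 CPM (-0.11, 0.462).

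Among 11 tested regulators of respiratory genes and mitochondrial transcription, 1 was called lower and 0 higher. This was Nrf1, which encodes the factor whose letters were searched above, at 29.96, 28.3, 30.3 and 32.5 CPM on day 4 and at 23.9, 22.3, 24.7, 23.4 and 25.2 CPM on day 14. Every day 14 library lay below every day 4 library (log2 fold change -0.34 ± 0.08 SE, edgeR adjusted p = 0.00632), and the call was kept without any single library and with the GC offset (-0.27, 0.00752). Of the 14 members with an NRF1 match in a promoter window, 2 were called lower, with a median log2 fold change of -0.20 and a median transcript GC content of 53.9%. Of the 14 with a window and no match, 0 were called lower, with -0.05 and 50%. The 7 members without a window held the other 2 calls (Cyc1 and Cox4i1), with -0.11 and 50.2%. Over all genes tested, 14.9% were called lower. The 2 called members with a match, Uqcrc1 and Atp5o, have it only past the start. The 8 members with a match wholly before the start were not called. Their log2 fold changes were 0.04 (Atp5c1), -0.03 (Atp5g2), 0.21 (Atp5h), -0.0003 (Atp5j), -0.26 (Atp5k), 0.11 (Atp5l), -0.26 (Cox6a1) and 0.22 (Cycs). The difference between these sets was not tested. Yy1, the most abundant regulator, was at 106 ± 15.2 and 118 ± 18.4 CPM (0.15, 0.40).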

How the data were processed

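RNA-seq libraries of total RNA from sorted wound macrophages (4 at day 4, 5 at day 14) were made with the TruSeq kit v2, which does not mark the strand, and sequenced as paired 100-base reads, per the labels' protocols. The submitters' processing notes name build mm10 and, with no order or role, HISAT2 2.1.0, Partek 6.6, DESeq2, SAMtools 1.4 and CASAVA 1.8. The counting, annotation and filters are not given in the sources used here. The authors deposited estimated counts per gene symbol, of which 15.0% to 19.3% per library were not whole. These were rounded. The authors also deposited normalized values, a signal on the scale of counts per library, read only to see how it lists 5 members in day 14 replicate 5 beside the 8 other libraries, and in no test.

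Genes up to the point where day 14 replicate 5 stops were fitted with 9 libraries, and the 1504 genes beyond it with 8, by edgeR 4.0.16 in R 4.3.3 (TMM, filterByExpr, glmQLFit with robust dispersion, glmQLFTest, two-sided). Benjamini-Hochberg adjustment ran over all 13344 genes tested, at 0.05. SE is the log2 fold change over the root of F. CPM uses the counts of genes that passed the filter. The steps were tested on simulated data. Transcript length and GC content came from GENCODE transcripts of GRCm38, 1 per gene. The GC offset is a smooth of log2 CPM with a prior count of 2 on GC, by spline with 5 degrees of freedom, in each library. Alternatives were DESeq2 1.42.0, limma-voom (limma 3.58.1), other scalings, filters and covariates, the 6 libraries of lower depth, and leaving out each library.

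The members and lists were chosen with earlier results of these data known. Values per library are given for called members, members without overlap, the subunit c genes and the highest-CPM member of each unit. Of each list, up to 3 called genes a direction and the most abundant were named, and other named genes were chosen after their values were seen. Not every gene that this rule names is reported here. The lists were scored by counts, with no set test. Promoters are RefSeq's. The median SE was 0.10 for members and 0.13 for all genes.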

Additional observations from a re-analysis of the deposited data

Results flagged for a closer look

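In 4 of the 70 groups of libraries looked at (35 members on 2 days), a library stood apart from the others of its day. Chance alone gives about 1 such group in 20. All 4 lay at day 4. Uqcrfs1 was highest in replicate 1, at 60.65 CPM against 53.8 to 54.3 CPM in the others. Atp5f1 was highest in replicate 2, at 73.61 CPM against 66.3 to 67.4 CPM. Replicate 4 was highest for Uqcrq, at 18.78 CPM against 9.26 to 10.4 CPM, and lowest for Atp5l, at 23.67 CPM against 25.9 to 26.1 CPM. Replicate 4 of day 4 also had the highest slope of expression on transcript GC content (0.26 log2 units per 10 points). What these values share was not tested.

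The authors' deposited normalized table holds values that the counts do not. In day 14 replicate 5, whose counts stop before them, Cox7a2 is listed at 1629.46 and Cox7b at 1046.85, although both have 0 counts there. These are 0.984 and 0.974 times the mean of the 8 other libraries. Uqcrc1, Cox5a and Atp5l, also at 0 counts in that library, are written as 1 in the authors' deposited table. None of these values entered a test.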

How the results depend on the processing

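The members' median log2 fold change stayed between -0.12 and -0.05 in all 23 alternatives, and Cyc1 was called in 22 of 23, Uqcrc1 in 18 of 22, Cox4i1 in 16 of 23 and Atp5o in 11 of 23. Members called lower were 7 with DESeq2, 0 in the 6 libraries of lower depth (2 at an unadjusted p under 0.05) and 1 to 6 when 1 library was left out, and members called higher 0 to 1. In the 6 libraries of lower depth, 1030 genes were higher and 1045 lower, and the lists of other respiratory genes had 0 higher and 2 lower, where fewer libraries were tested. With library size as a covariate the lists had 10 lower. Leaving out 1 library gave 1 to 4 list genes higher, 9 to 21 lower, and 1600 to 2434 genes higher and 1441 to 2381 lower. NRF1 matches fell from 15 to 8 windows before the start only (25.8%, against 13.1% of tested genes' windows) and to 8 with CGCATGCG (25.8% against 3.55%). ETS had 8 and, with CCGGAA, 14, and YY1 1 and, with AAGATGG, 4. Of 848 single-gene values for 37 genes, 737 kept direction and call, 75 lost the call, 6 gained it and 30 turned direction, the turned ones all for genes not called. For these the log2 fold changes were: Atp5g2 0.0035 (upper quartile), 0.0593 (library size), 0.1044 (GC), 0.108 (GC and length), 0.0225 and 0.0042 (without day 14 replicate 3 or 5; lowest -0.0781, without replicate 2). Atpif1 had 0.0285 (upper quartile), 0.0006 (5 CPM filter), 0.0727 (GC), 0.0672 (GC and length), and 0.0091, 0.0222 and 0.024 without day 4 replicate 1, day 14 replicate 1 or 5 (lowest -0.0438). In the 6 libraries of lower depth, Cycs (-0.0388), Atp5j2 (-0.0101), Ucp2 (0.0347), Tmem70 (-0.0511) and Yy1 (-0.0646) turned. GC turned Cycs (-0.0366) and Tmem70 (-0.0587), and GC with length turned Cycs (-0.0446), Tmem70 (-0.0679) and Ucp2 (0.0046). Without day 4 replicate 1, Ttc19 was 0.0301. Without day 4 replicate 2, it was 0.0761 and Atp5f1 0.0028. Without day 4 replicate 3, Atp5j2 was -0.0149. Without day 14 replicate 2, Atp5j2 was -0.0015 (highest 0.0408). Without day 14 replicate 3, Ttc19 was 0.0304 (lowest -0.1813) and Atp5f1 0.0012 (lowest -0.0973). The cause was not tested. No paired analysis was possible because the labels carry no replicate numbers shared by the days.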
